A study of Mus musculus with 9 samples.

Results

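The natriuretic peptide system of the mouse heart is described here through 7 genes: the peptide genes Nppa and Nppb, the proteases Corin and Furin, and the receptors Npr1, Npr2 and Npr3. The genes were chosen by symbol, and all 7 were among the 15779 genes listed in the expression tables. The study followed mice with a premature stop codon (R946X) in Mybpc3, the gene of cardiac myosin-binding protein C, as a model of hypertrophic cardiomyopathy, and gave some of them an adenine base editor carried by adeno-associated virus serotype 9 (AAV9) for expression in cardiomyocytes. PolyA RNA was sequenced from 20 to 30 mg of adult heart of strain C57BL/6J in 9 libraries. The saline wild-type group (genotype wildtype) had 3 libraries, the saline mutant group (Mybpc3R946X/R946X) had 3, and the treated mutant group (Mybpc3R946X/R946X, given high-dose-exABE8e) had 3. The labels give neither the age in weeks, the sex nor the dose, and do not say whether the replicates came from separate animals, so the p-values measure the spread between these samples only. No wild-type group received the editor.

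Nppa encodes the precursor of atrial natriuretic peptide (ANP) and Nppb that of brain natriuretic peptide (BNP). Both hormones are released by heart muscle under wall stress and lower blood pressure and volume. In the adult, ANP comes mainly from the atria, and the ventricle makes more of both peptides when it enlarges or fails, so they are widely used as markers of cardiac hypertrophy. Corin, a serine protease on the cardiomyocyte surface, cuts the ANP precursor, and furin, a protease of the secretory pathway, is known to cut the BNP precursor. Npr1 and Npr2 are receptors with a guanylyl cyclase domain that makes the second messenger cGMP. Npr1 answers to ANP and BNP, and Npr2 to C-type natriuretic peptide. Npr3 lacks the cyclase domain and removes the peptides from the circulation.

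The deposited value of a gene is a whole number on a scale that summed to between 999152 and 999382 in each library. The unit is not named in the sources used here and the read depth is unknown, so the values are compared for each gene between libraries and not between genes. Between 14151 and 14934 genes were above 0 per library. The edited gene Mybpc3 was listed at 1510 to 2039 in the saline wild-type libraries, 133 to 186 in the saline mutants and 1024 to 1374 in the treated mutants. Xist, the RNA that coats the inactive X chromosome, was above 0 in 1 library of each group: saline wild-type replicate 1, saline mutant replicate 3 and treated replicate 1. The first 2 of these had Ddx3y, Uty, Kdm5d and Eif2s3y, genes of the Y chromosome, at 0, but treated replicate 1 carried both kinds of transcript: Xist at 39, Ddx3y at 38, Uty at 10, Kdm5d at 10 and Eif2s3y at 37. The other 2 treated libraries had Ddx3y at 76 and 82 and Xist at 0. Whether treated replicate 1 holds RNA of more than 1 animal was not tested. The differences of Nppa and Nppb in the treated group are given with and without it. Where no value without it is given, treated results include it. Summed cardiomyocyte markers overlapped between the groups (49433 to 58511, 51347 to 62707 and 54588 to 58076 in the order wild type, saline mutant, treated), with all 10 markers listed above 0 in every library. Single markers moved both ways, with 6 higher and 4 lower in saline mutants than in wild type. Of the 10, 6 had an unadjusted limma p under 0.05, beside 19.7% of all genes tested. None passed after adjustment over all genes tested.

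Nppb lies at chr4:147985788-147987205 and Nppa at chr4:148000722-148002079 (GENCODE M21, build GRCm38, both on the plus strand), with 13516 bases between them. Each has 3 exons, coding for 121 codons in Nppb and 152 in Nppa. The 250 bases before each RefSeq start (GRCm38.p6) are shown because these 2 neighbours had the largest differences of the 7 genes. Capitals mark matches on either strand to 5 motifs of heart promoters: the GATA motif (AGATAA or AGATAG or TGATAA or TGATAG), the TATA box (TATAAA), the M-CAT element of TEAD factors (CATTCC), the NK-2 element (TNAAGTG) and the CArG box of serum response factor.
Nppa, chr4:148000472-148000721: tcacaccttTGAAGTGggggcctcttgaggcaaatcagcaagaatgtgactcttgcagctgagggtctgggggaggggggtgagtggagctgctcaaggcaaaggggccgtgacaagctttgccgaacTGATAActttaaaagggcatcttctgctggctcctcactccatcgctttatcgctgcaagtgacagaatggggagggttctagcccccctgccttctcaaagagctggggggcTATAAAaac
Nppb, chr4:147985650-147985899: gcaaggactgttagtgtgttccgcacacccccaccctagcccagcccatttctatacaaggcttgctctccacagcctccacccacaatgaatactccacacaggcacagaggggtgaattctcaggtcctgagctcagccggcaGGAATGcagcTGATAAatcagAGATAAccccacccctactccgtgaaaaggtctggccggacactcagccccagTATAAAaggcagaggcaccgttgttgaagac
The Nppa window held TGAAGTG, then TGATAA, then TATAAA. The Nppb window held GGAATG, the M-CAT element read on the minus strand, then TGATAA, then AGATAA, then TATAAA. Relative to the RefSeq start, TATAAA began at -9 in Nppa and at -31 in Nppb. Neither window held a CArG box match, and the windows shared the letters TGATAA plus those of the TATA box. The same 250 bases before the start were searched in 32851 RefSeq promoters. A GATA match was found in 26.5%, TATAAA in 12.4%, CATTCC in 12.6%, TNAAGTG in 10.1% and a CArG box in 1.47%. These matches describe the letters only. For Nppb the GENCODE start lies 112 bases before the RefSeq start, so its window covers part of the longer annotated transcript.

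Nppa was listed at 61, 42 and 45 in the 3 saline wild-type libraries, at 356, 858 and 1489 in the saline mutants and at 256, 187 and 155 in the treated mutants. The saline mutant group lay wholly above the wild-type group, and the treated group lay between them with no overlap on either side. Over all genes tested, 12.8% lay wholly higher in saline mutants than in wild type, 4.34% wholly lower in treated than in saline mutants and 9.13% wholly higher in treated mutants than in wild type. The means were 49.3 ± 10.2 (SD, n = 3), 901 ± 568 and 199 ± 51.6, so the saline mutant mean was 18.3 times and the treated mean 4.04 times the wild-type mean. Replicates spread most in the saline mutants, where the highest value was 4.18 times the lowest, against 1.45 times in wild type and 1.65 times in the treated group.

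A gene was called where the limma p, adjusted by Benjamini-Hochberg over all genes tested, was under 0.05. Nppa rose in saline mutants against saline wild type by 3.95 on the log2(value + 1) scale (95% interval 2.97 to 4.94, limma adjusted p = 0.0011), the 4th largest absolute change among 13632 genes tested. Treated mutants were lower than saline mutants by a log2 difference of -1.97 (-2.99 to -0.96), which did not pass (limma adjusted p = 0.253). Nppa was higher in treated mutants than in saline wild type by 1.98 (1.49 to 2.47, limma adjusted p = 0.0196). That last call was lost without any 1 of the 3 wild-type libraries (limma adjusted p = 0.0525, 0.0728 and 0.0687) or without treated replicate 2 (0.0516). Without treated replicate 1 it held (1.79, limma adjusted p = 0.0251), and the difference from saline mutants was -2.17 (0.386). The difference between treated and saline mutants passed without saline mutant replicate 1, the lowest of its group (-2.53, limma adjusted p = 0.0332). An annotated antisense gene, Gm13054, overlaps Nppa and was listed at 0 to 3 in every library. Whether the authors counted by strand is not given in the sources used here, so reads of the pair cannot be told apart. The same holds for Npr2 and its antisense neighbour Gm12473, listed at 1 to 2 in every library. Npr1, Npr3, Corin and Furin also overlap annotated genes on the other strand, and Corin overlaps others on its own strand. No values are given here for these genes.

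Nppb was listed at 61, 38 and 38 in saline wild type, at 344, 477 and 490 in saline mutants and at 188, 115 and 78 in treated mutants. Again the 3 groups did not overlap, with the treated libraries between the saline groups. The means were 45.7 ± 13.3 (SD, n = 3), 437 ± 80.8 and 127 ± 56.0, and the saline mutant and treated means were 9.57 and 2.78 times the wild-type mean. Here the treated group spread most, its highest library at 2.41 times its lowest, while the saline mutants differed by 1.42 times.

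Nppb rose in saline mutants by 3.25 on the log2 scale (95% interval 2.78 to 3.72, limma adjusted p = 0.000121), the 15th largest absolute change. Treated mutants were lower than saline mutants by a log2 difference of -1.85 (-2.51 to -1.19), which did not pass (limma adjusted p = 0.139), though it did without treated replicate 1 (-2.18, limma adjusted p = 0.0456). Against saline wild type, the treated mutants were higher by 1.40 (0.65 to 2.15), which did not pass either (limma adjusted p = 0.126), nor without treated replicate 1 (1.07, 0.226). On a scale where 0 is the saline mutant mean and 1 the wild-type mean of log2 values, the 3 treated libraries lay at 0.368, 0.585 and 0.755 for Nppb and at 0.400, 0.514 and 0.583 for Nppa. On the linear scale the mean positions were 0.792 ± 0.143 (SD, n = 3) and 0.824 ± 0.0606.

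**Figure D1:**
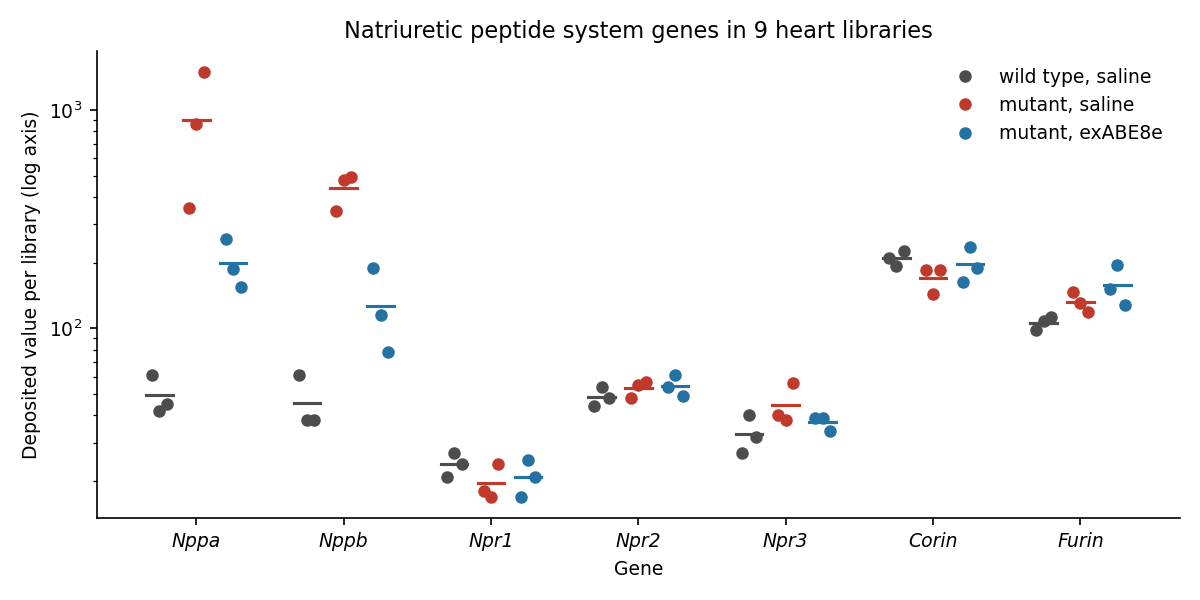
Deposited value of each gene (log axis) in each of the 9 libraries, by gene and group, with a bar at the group mean. Nppa and Nppb separate the 3 groups, with saline mutants at 356 to 1489 and 344 to 490 against 42 to 61 and 38 to 61 in wild type, while Npr1, Npr2 and Npr3 overlap between groups.

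Of the 7 genes, 2 were called in saline mutants against saline wild type, Nppa and Nppb, beside 7.7% of all genes tested (622 higher and 428 lower, or 622 and 684 with upper-quartile factors between libraries). In treated against saline mutants none of the 7 passed with limma, while 2 had an unadjusted p under 0.05, beside 0.0147% of all genes called and 8.29% at that unadjusted level. In treated mutants against saline wild type 1 of the 7 was called, Nppa, beside 0.989% of all genes (117 higher and 17 lower, or 116 and 46 with upper-quartile factors). The median log2 fold change of all genes was 0.07, -0.02 and 0.01 in these comparisons, which share groups: each group serves in 2 of them.

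**Figure D2:**
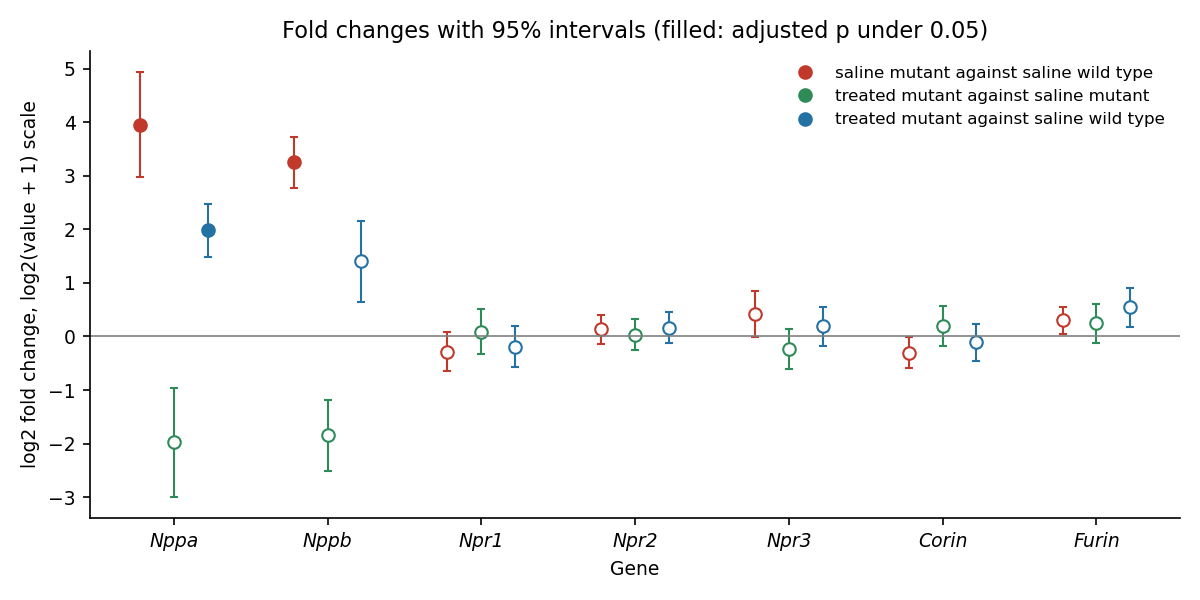
Log2 fold change on the log2(value + 1) scale with its 95% interval for each gene in the 3 comparisons, filled where the adjusted p was under 0.05. Filled points are Nppa (3.95) and Nppb (3.25) in saline mutants against wild type and Nppa (1.98) in treated mutants against wild type.

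Across the libraries the peptide genes ranked alike. Pearson's r between their log2 values was 0.969 and Spearman's rho 0.996 over the 9 libraries, a description that includes the differences between the groups. The ratio of the Nppa value to the Nppb value was 1, 1.11 and 1.18 in wild type and 1.03, 1.80 and 3.04 in saline mutants. In the treated group it was 1.36, 1.63 and 1.99. The treated libraries lay above all wild-type libraries (log2 difference 0.58, exact permutation p = 0.1, the smallest that 3 against 3 can give, and 0.18 adjusted over 9 tests of ratios), which did not pass. Among all pairs of the 8786 genes with a mean value of 10 or more, the ratio within libraries likewise did not overlap between these groups in 22.4% of pairs. The saline mutants overlapped wild type (0.71, exact permutation p = 0.3). In each group the highest Nppa and the highest Nppb stood in the library in which Xist was above 0, a pattern held by 679 of 13530 genes (5.02%) and by none of the other 5 members. Without those 3 libraries, Nppa and Nppb remained called in saline mutants against wild type (3.64 and 3.38, limma adjusted p = 0.00589 and 0.000682). With the summed level of Y-linked genes as a covariate, the values were 3.96 and 3.25 (limma adjusted p = 0.00151 and 0.000313).

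**Figure D3:**
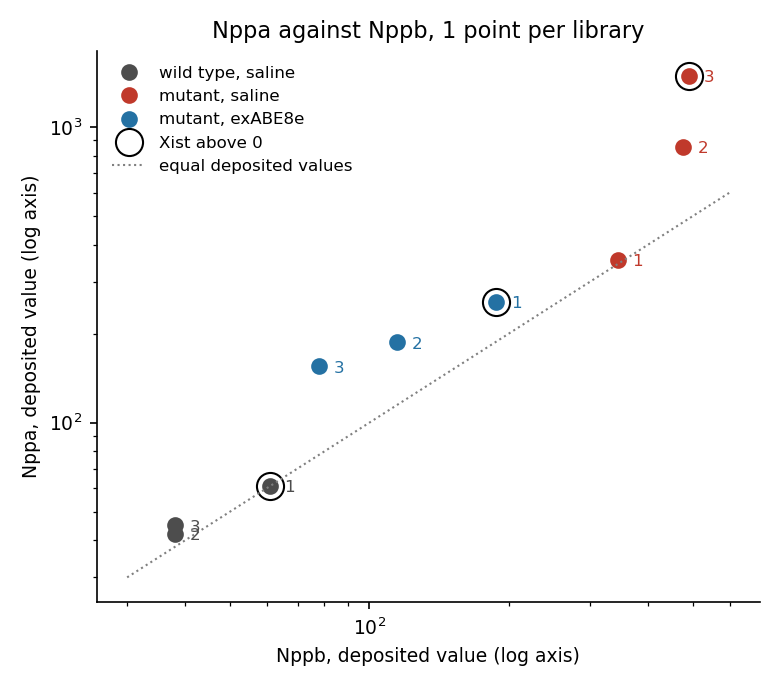
Nppa against Nppb, both as deposited values on log axes, 1 point per library with its replicate number, the libraries with Xist above 0 ringed and a dotted line at equal deposited values. Nppa and Nppb order the libraries almost alike (Spearman's rho 0.996), and saline mutant replicate 3 stands highest at 1489 and 490.

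Because both peptide genes are expressed in adult atrial muscle, its markers were read beside them. Summed over the 7 atrial markers analysed here, the level was 118 to 134 in wild type, 63 to 101 in saline mutants and 94 to 102 in treated mutants, below the wild-type range in both mutant groups. Much of this fall lies in 1 gene, Kcnj3, at 48 to 54 in wild type, 9 to 11 in saline mutants and 23 to 30 in treated mutants. The sum therefore does not stand for all 7 markers. The markers Myl7, Sln and Bmp10 were not analysed here. Of the 7, Myl4 and Dkk3 were called higher in saline mutants than in wild type with limma, and Stard10, Myl1 and Kcnj3 lower. Myl4, the atrial essential light chain, was at 1, 1 and 1 against 3, 3 and 5. Dkk3 was at 5, 5 and 4 against 13, 17 and 35, and at 17, 8 and 15 in treated mutants. Stard10 was at 19, 16 and 15 against 6, 3 and 6, and Myl1 at 31, 30 and 31 against 12, 15 and 20. In treated mutants against wild type 2 of the 7 were called lower and none higher, beside 0.989% of all genes called. Fibroblast markers summed to 3595 to 4803 in wild type, 4409 to 6317 in saline mutants and 4177 to 4727 in treated mutants, and 2 of 10, Col1a1 and Col1a2, were called higher in saline mutants. In treated against saline mutants 9 of the 10 fibroblast markers were lower, 6 of them at an unadjusted p under 0.05 and none called. Macrophage markers summed to 425 to 591, 455 to 871 and 430 to 581, with 8 of 8 higher in saline mutants than in wild type and 8 of 8 lower in treated than in saline mutants, none called or at an unadjusted p under 0.05 with limma. Blood markers, 6 listed, summed to 104 to 313, 69 to 85 and 140 to 158. All 5 tested were lower in saline mutants than in wild type at an unadjusted limma p under 0.05, and 2, Hba-a2 and Alas2, were called. In treated against saline mutants all 5 were higher at an unadjusted limma p under 0.05, and none was called. Of all genes tested, 59.1% were higher in saline mutants than in wild type, 19.7% had an unadjusted limma p under 0.05 and 7.7% were called. In treated against saline mutants 54.0% were lower, 8.29% had an unadjusted limma p under 0.05 and 0.0147% were called. The part of the cell makeup in the peptide genes' values was not tested, and in whole tissue fewer cells of a type and less RNA per cell cannot be told apart.

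The genes around the pair differed less. Of 10 other tested genes reported here within 150 kb, none was called in saline mutants against wild type with limma. Over all genes tested 7.7% were called, so few or no calls would be expected among any 10. The log2 fold changes of these neighbours ran from -0.13 to 0.32. Clcn6, a chloride and proton exchanger gene that lies next to Nppa, stood at 0.26. On the other side of Nppb, the collagen lysyl hydroxylase gene Plod1 stood at -0.01 and the mitochondrial fusion gene Mfn2 at -0.03.

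**Figure D4:**
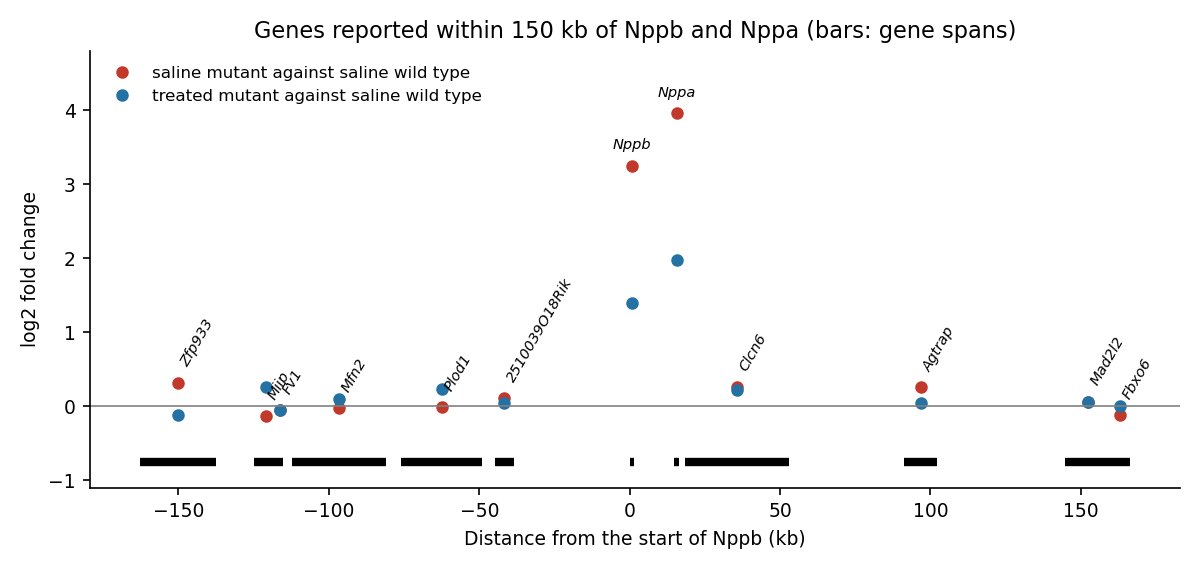
Log2 fold change of the tested genes reported here within 150 kb of Nppb and Nppa, plotted at the gene's middle by distance from the start of Nppb in kb, with black bars for gene spans. Nppb (3.25) and Nppa (3.95) stand above 10 neighbours between -0.13 and 0.32 in saline mutants against wild type.

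Among the processing enzymes, Corin (chr5:72300025-72504473, minus strand, GRCm38) was listed at 209, 192 and 227 in saline wild type, at 185, 143 and 184 in saline mutants and at 163, 236 and 189 in treated mutants. All saline mutant libraries lay below all wild-type libraries, as 8.78% of all tested genes did, and the treated libraries overlapped both groups. The difference between the saline groups was -0.30 (95% interval -0.59 to -0.01, limma adjusted p = 0.237) and did not pass. Treated mutants differed from saline mutants by 0.19 and from wild type by -0.11, and neither passed. Furin (chr7:80388585-80405436, minus strand) was listed at 98, 108 and 113, then 146, 130 and 119, then 151, 194 and 128. Both mutant groups lay above the wild-type group, as 12.8% of genes did in saline and 9.13% in treated mutants, and they overlapped each other. The differences from wild type were 0.30 (0.05 to 0.56, limma adjusted p = 0.164) in saline and 0.55 (0.18 to 0.91, limma adjusted p = 0.208) in treated mutants, and neither passed. Between treated and saline mutants Furin differed by 0.24 (limma adjusted p = 0.716).

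The 2 proteases can be read as a ratio within a library, which no scaling between libraries changes apart from the pseudocount. Corin over Furin was 2.13, 1.78 and 2.01 in wild type and 1.27, 1.10 and 1.55 in saline mutants. In the treated group it was 1.08, 1.22 and 1.48. Both mutant groups lay below the wild-type group, where 34.3% of all gene pairs had ratios without overlap between the saline groups and 22.4% between treated mutants and wild type. The log2 differences from wild type were -0.60 in saline and -0.65 in treated mutants, each with the smallest exact permutation p of 0.1 (0.18 adjusted over the 9 tests), and neither passed. The treated and saline mutants overlapped (-0.05, exact permutation p = 0.7).

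The cyclase receptor Npr1 (chr3:90450591-90465866, minus strand) was listed at 21, 27 and 24 in wild type, at 18, 17 and 24 in saline mutants and at 17, 25 and 21 in treated mutants. Npr2 (chr4:43631935-43651244, plus strand) was listed at 44, 54 and 48, then 48, 55 and 57, then 54, 61 and 49. The clearance receptor Npr3 (chr15:11839896-11907287, minus strand) was listed at 27, 40 and 32, then 40, 38 and 56, then 39, 39 and 34. For each receptor the 3 groups overlapped. The log2 differences of saline mutants from wild type were -0.28 for Npr1 (95% interval -0.65 to 0.08), 0.13 for Npr2 (-0.14 to 0.40) and 0.42 for Npr3 (-0.00245 to 0.85), with limma adjusted p of 0.396, 0.621 and 0.255. In treated against saline mutants they were 0.09, 0.03 and -0.23 (limma adjusted p = 0.933, 0.986 and 0.741), and in treated mutants against wild type -0.19, 0.16 and 0.19 (limma adjusted p = 0.695, 0.655 and 0.686). These intervals leave room for changes of Npr3 in saline mutants up to 1.80-fold and of Npr1 down to 0.637-fold.

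The clearance receptor can be set against the cyclase receptor of ANP and BNP in the same way. Npr3 over Npr1 was 1.29, 1.48 and 1.33 in wild type and 2.22, 2.24 and 2.33 in saline mutants, without overlap, as for 34.3% of all gene pairs. The log2 difference was 0.71 with the smallest exact permutation p of 0.1 (0.18 adjusted over 9 tests), and it did not pass. Treated libraries lay at 2.29, 1.56 and 1.62, above all wild-type libraries, where 22.4% of all gene pairs did not overlap. Their log2 difference from wild type was 0.38 (smallest exact permutation p of 0.1, 0.18 adjusted over 9 tests), which did not pass. Without treated replicate 1, the highest, that log2 difference was 0.21. The treated libraries overlapped the saline mutants (log2 difference -0.32, exact permutation p = 0.3). Summed endothelial markers, a cell type known to express Npr1 and Npr3, were 1085 to 1488 in wild type, 989 to 1189 in saline mutants and 992 to 1164 in treated mutants; their part in the ratio was not tested.

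**Figure D5:**
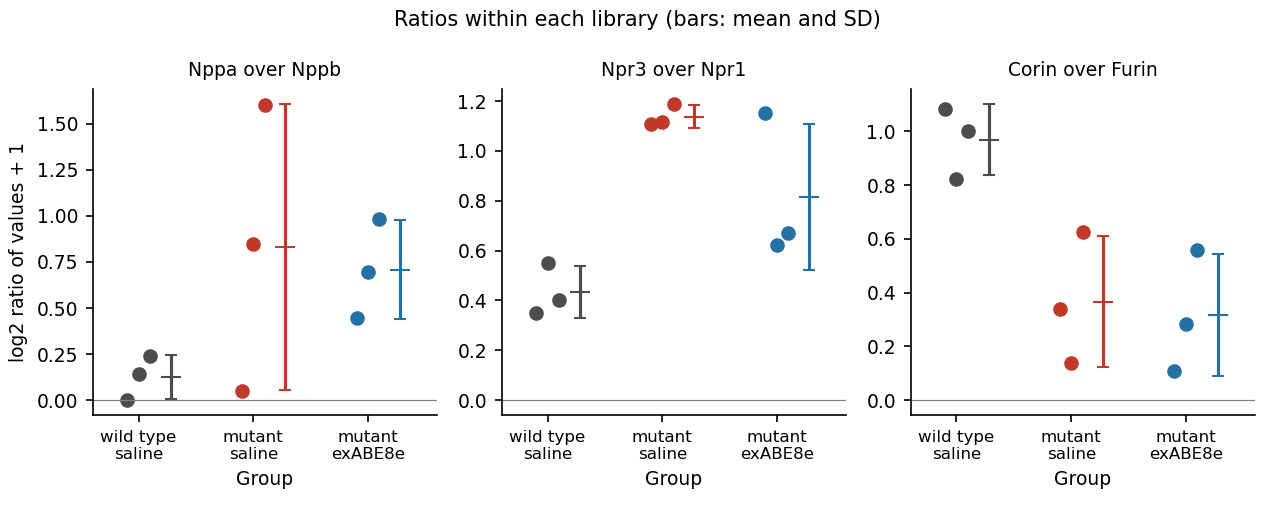
Log2 ratio of 2 values (each with 1 added) within each library for Nppa over Nppb, Npr3 over Npr1 and Corin over Furin, with points for the 3 replicates per group and bars for mean and SD. Npr3 over Npr1 lies higher in all saline mutants than in wild type (difference 0.71) and Corin over Furin lower (-0.60). Of all gene pairs, 34.3% had ratios without overlap between the saline groups.

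The wider pathway was read in 63 tested genes for processing, degradation, cGMP synthesis, cGMP kinases and their substrates, phosphodiesterases, transcription factors known at these promoters and chromosomal neighbours. In saline mutants against wild type 5 passed (7.94%, beside 7.7% of all genes), 3 higher and 2 lower, and the median log2 fold change was 0.02 beside 0.07 for all genes. With limma none of the 63 passed in treated against saline mutants (5 at an unadjusted p under 0.05) or in treated mutants against wild type (9 at that level, beside 12.5% of all genes). The genes named below are those called and the 6 with the largest changes in each comparison.

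Mme encodes neprilysin, a membrane protease that degrades natriuretic peptides. It was listed at 8, 11 and 13 in wild type, at 4, 4 and 2 in saline mutants and at 5, 7 and 8 in treated mutants, with no overlap between the saline groups. Over all tested genes, 8.78% lay wholly lower in saline mutants than in wild type. Mme fell in saline mutants by 1.44 on the log2 scale (limma adjusted p = 0.00992), and its values are low enough for the rounding to whole numbers to weigh. The call ended with limma's trend and no variance floor (adjusted p = 0.0508). Ide, Dpp4 and Fap, the other peptide-degrading enzymes of the list, did not pass.

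Prkg1 encodes the cGMP-dependent protein kinase that acts downstream of Npr1. It was listed at 16, 19 and 20 in wild type, at 36, 37 and 44 in saline mutants and at 19, 23 and 34 in treated mutants. Prkg1 rose in saline mutants by 1.05 (SE 0.135, limma adjusted p = 0.0022), and the treated libraries lay below all saline mutants (-0.64, limma adjusted p = 0.452, not passed). Over all tested genes, 4.34% lay wholly lower in treated than in saline mutants. Prkg1 was the 1 call among 10 kinases and substrates in saline mutants against wild type, beside 7.7% of all genes called. Rgs2, a regulator of G protein signalling that the kinase phosphorylates, was listed at 49, 49 and 34 against 32, 23 and 29 in saline mutants (-0.63, limma adjusted p = 0.0763). It did not pass here but did under the 3 other scalings (0.0255 to 0.0494), with the prior from all genes (0.0458), with all 9 libraries in 1 fit (0.0472) and without wild-type replicate 3 (0.0346). The phosphodiesterase gene Pde3b (0.63, limma adjusted p = 0.0826), listed at 6 to 7 in wild type and 9 to 14 in saline mutants, passed with median-of-ratios factors (0.0301) only, and none of the 9 phosphodiesterase genes passed in the fit used here.

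Of 23 transcription factors, Tbx20 and Nfatc2 were called higher and Tbx5 lower in saline mutants than in wild type, beside 7.7% of all genes called. Tbx20, a T-box factor of adult cardiomyocytes, was listed at 105, 125 and 94 in wild type, then 165, 159 and 203, then 100, 124 and 147 (0.70, limma adjusted p = 0.0178). Nfatc2, a target of the phosphatase calcineurin, was listed at 16, 18 and 17, then 23, 24 and 28, then 27, 18 and 23 (0.53, limma adjusted p = 0.0385). Tbx5, an activator of Nppa in development, was listed at 20, 22 and 21, then 15, 13 and 15, then 13, 21 and 19 (-0.52, limma adjusted p = 0.0366). These 3 calls rest on few libraries. With limma, Tbx5 was not called without any 1 of the 6 libraries (adjusted p = 0.0565 to 0.178), Nfatc2 without any 1 of them but saline mutant replicate 1 (0.0741 to 0.133), and Tbx20 with saline mutant replicate 3 (0.0558) or either of wild-type replicates 1 (0.0747) and 3 (0.0673) left out. The call of Prkg1 held in all 20 alternatives, up to an adjusted p of 0.0156. Factors of the motif families searched above, named for that reason and not by the rule, did not pass: Gata4 differed by 0.18, Nkx2-5 by -0.09, Tead1 by 0.39 and Srf by 0.29 between the saline groups.

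Of the processing genes related to furin, Pcsk6, a proprotein convertase that activates corin, was listed at 137, 165 and 129 in wild type, at 77, 85 and 123 in saline mutants and at 85, 119 and 112 in treated mutants. Both mutant groups lay below all wild-type libraries, as 8.78% of all tested genes did in saline and 5.43% in treated mutants. The differences were -0.61 (limma adjusted p = 0.0818) and -0.45 (limma adjusted p = 0.289). Neither passed here, but in saline mutants the difference did under the 3 other scalings (0.00798 to 0.0363), with the prior from all genes (0.0474), without the libraries with Xist (0.0267) and without saline mutant replicate 3 (0.0162). In treated mutants against wild type, Hand2, a heart-forming transcription factor, had the largest pathway difference (0.98, limma adjusted p = 0.208; 28, 22 and 24 against 47, 78 and 33). Egr1, an immediate-early factor, followed at 0.96 and Klf15, a repressor of hypertrophic genes, stood at 0.50, and neither passed. Between the mutant groups the largest differences were those of Mme (0.84), Prkg1 (-0.64), the T-box factor gene Tbx3 (0.57) and Tbx20 (-0.51), none of which passed.

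Likeness of pattern was described by Pearson's r of log2(value + 1) over the 9 libraries among 8786 genes whose mean value was 10 or more, which reflects group differences as well as shared library effects. The genes most like Nppa were Iah1 (0.984), Gpatch4 (0.976), Eif3h (0.975), Lrrcc1 (0.974) and, 5th, Nppb (0.969). Those most like Nppb were 1810058I24Rik (0.975), Cystm1 (0.973), Cfl2 (0.972), Nppa (0.969) and Jpt1 (0.968). All of these 8 other genes were called higher in saline mutants, with log2 fold changes from 0.55 to 1.29, well under those of the peptide genes. Those calls are no separate result, because the genes were picked for likeness to Nppa or Nppb over the same libraries. The single closest gene was Epn2 for Npr1 (0.984), Tdrd7 for Npr2 (0.967), Pnn for Npr3 (0.938), Thbs2 for Corin (0.870) and Lnx2 for Furin (0.979).

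The authors' deposited table gave log2 fold changes of 4.06 for Nppa and 3.17 for Nppb in saline mutants against wild type. In the authors' deposited table the treated mutants differed from saline mutants by -2.08 and -1.72, and from wild type by 1.998 and 1.46. The column headed padj in the authors' deposited table equals the unadjusted two-sided normal p of the listed statistic for all 15587 genes with a value in the first comparison. With Benjamini-Hochberg adjustment of those p-values, the authors' deposited table called Nppb in treated against saline mutants (5.93e-08) and in treated mutants against wild type (0.00323), where limma on the deposited values did not. For Nppa in treated against saline mutants, the adjusted p from the authors' deposited table was 0.142.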

How the data were processed

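Per the submitters' processing notes, HISAT2, HTSeq, DESeq2 and the build mm10 were used, with no role or version given. The authors deposited 3 tables of whole numbers per gene and library, taken here as a normalised score rounded by the authors, because each library summed to nearly the same total. The authors' own log2 fold changes and p-values come from the same deposited tables. Each pair of groups was fitted alone with limma 3.58.1 (R 4.3.3) on log2(value + 1), over genes with a mean of at least 1 in the pair. Residual variance was held at or above the rounding variance (1/12), and the prior degrees of freedom came from genes with a mean of at least 30, a step taken from an earlier analysis that chose it after seeing these data. Calls needed a Benjamini-Hochberg adjusted p under 0.05 over all genes tested. Ratios were compared by two-sided exact permutation tests. Promoter sequences came from the RefSeq table, in which all 7 members matched, and gene positions from GENCODE M21. The members, pathway and marker lists were chosen with earlier results of these data known. Genes named are the members, Mybpc3, list genes called, the 6 with the largest changes per comparison at a mean of at least 5, and the genes most alike in pattern. The alternatives varied the pseudocount, the filter, the scaling, the variance step, the libraries and a replicate block. A gene near Nppa and Nppb is not reported here.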

Additional observations from a re-analysis of the deposited data

How the results depend on the processing

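Over 20 alternatives for each of the 7 genes in each comparison, 403 of 420 values kept their direction and their side of the threshold. In all 20, saline mutants against wild type gave calls for Nppa and Nppb, with limma adjusted p from 6.5e-05 to 0.0208 and from 6.34e-06 to 0.00449. In treated against saline mutants the number of the 7 called was 1 (Nppb) with the replicate block or a prior taken from all genes, and 0 to 1 leaving out each library, where Nppa's limma adjusted p ran from 0.0332 to 0.862 over all alternatives and Nppb's from 0.0386 to 0.537. In treated mutants against wild type it was 0 with limma's trend and no floor, 2 with all 9 libraries in 1 fit and with the replicate block, and 0 to 1 leaving out each library, with limma adjusted p from 0.00333 to 0.0728 for Nppa and from 0.0475 to 0.32 for Nppb. The cause was not tested. Same-numbered libraries did not deviate together in every pair (correlations of -0.269 to 0.453), so the numbers were not taken to pair the samples. With the replicate block 819, 30 and 35 genes were called over all genes in the 3 comparisons, against 1050, 2 and 134 without it. Over all alternatives these counts ran from 506 to 1306, 2 to 32 and 1 to 243. The lowest of the third, 1, came without saline wild-type replicate 1.

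Signs turned only for values near 0. Leaving out each library, Npr1 ran from -0.0392 to 0.234 and Npr2 from -0.0474 to 0.108 in treated against saline mutants. Corin in treated mutants against wild type ran from -0.249 to 0.0161, and was 0.0166 without the libraries with Xist. In treated against saline mutants the log2 ratio of Nppa to Nppb ran from -0.516 to 0.26 and that of Corin to Furin from -0.171 to 0.0786 leaving out each library, turning sign without treated replicate 1 (0.00695 and 0.0532) or saline mutant replicate 3 (0.26 and 0.0786). The mean position of the treated libraries moved from 0.499 to 0.824 for Nppa and from 0.569 to 0.792 for Nppb on the linear scale. Outside the 7 genes, in saline mutants against wild type, Tbx5 lost its call in 10 of 20 alternatives, Nfatc2 in 9, Tbx20 in 5 and Mme in 1 of 19 (limma adjusted p up to 0.178, 0.192, 0.0937 and 0.0508). Beside single libraries, these were all 9 libraries in 1 fit, the replicate block and the Y-linked covariate for Tbx5 and Nfatc2, the trend with no floor for Tbx20 and Mme, and, for all but Mme, the fit without the libraries with Xist. Rgs2 and Pcsk6 each gained a call in 6 of 20 and Pde3b in 1 of 19. The filter at a mean of 10 gave no value for Mme and Pde3b. Depth is unknown, and rounding to whole numbers limits genes with values under about 10.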
